A study of Homo sapiens with 12 samples.

Results

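The genes described here encode the proteins of the cytosolic ribosome. They were taken by symbol from the gene tables of both cell lines: the numbered RPL and RPS symbols with their A, X, L and AL forms, together with RPLP0, RPLP1, RPLP2, RPSA and FAU. This gave 83 genes of the 60314 named entries of each table, 50 for the large subunit and 33 for the small subunit. All 83 had an entry in both tables and lie on 21 chromosomes of the human genome in GENCODE 29.

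RNA sequencing was run on 2 human prostate cancer lines that grow without androgen: C4-2B, which was derived from LNCaP cells, and 22RV1, which came from a xenograft. Both are given as wild type, and both were kept in glutamine-free RPMI-1640 with serum, to which L-glutamine at 2 mM was added in every group. The 4 groups were C4-2B with the 56-mer at 50 nM, C4-2B without it (control), 22RV1 with the 56-mer at 50 nM and 22RV1 without it (control), each for 48 h and with 3 libraries. The 56-mer is an aptamer by the title of the series, that is, a folded nucleic acid meant to bind a target, and the controls received no other oligonucleotide by their labels. The series text calls the libraries biological triplicates, the labels name no culture day or batch, and all libraries of a line come from the same line, so p-values measure the spread between these libraries.

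Ribosomal proteins are made in the cytoplasm, imported into the nucleolus and assembled there with ribosomal RNA into the large and the small subunit. Most are needed in equal amounts, and their mRNAs are among the most abundant of a growing cell. Most of these mRNAs begin with a terminal oligopyrimidine (TOP) tract, a C followed by a run of pyrimidines, through which the mTOR kinase and the RNA-binding protein LARP1 set their translation. Some ribosomal proteins have second roles: RPL5 and RPL11 bind MDM2 and so act on p53, and RPS6 is phosphorylated by the S6 kinases. In prostate cancer cells, as in other growing cells, ribosome production is tied to growth signals and to the supply of amino acids.

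The start-site sequences are shown because the TOP tract is the feature that ties these genes together, and because RPLP0, the gene that passed the test in C4-2B, carries one. RefSeq (GRCh38.p14) promoter entries were found for 66 of the 83 genes. A tract of at least 5 pyrimidines that began with a C at the annotated start stood at 1 or more starts of 47 of these 66 genes (71.2%), against 4.98% of 27239 other gene symbols. Each line below runs 5′ to 3′ over the 20 bases before and the first 10 bases after the annotated start, with the uninterrupted pyrimidine run that begins with C at the start in capitals. The first lines are the acidic stalk proteins RPLP0 (chr12:120201102-120201131, minus strand), RPLP1 (chr15:69452798-69452827, plus strand) and RPLP2 (chr11:809947-809976, plus strand), followed by RPS6 (chr9:19380227-19380256, minus strand), RPS19 (chr19:41860235-41860264, plus strand, 1 of its 2 listed starts) and RPS26 (chr12:56041898-56041927, plus strand).
RPLP0: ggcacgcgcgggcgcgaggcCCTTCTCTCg
RPLP1: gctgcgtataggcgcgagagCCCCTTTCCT
RPLP2: gcctcttgcgtcggcgccttCCTTTTCCTC
RPS6: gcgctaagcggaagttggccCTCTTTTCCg
RPS19: gcccgggaaaccccgtcgttCCCTTTCCCC
RPS26: gctgggagacacataacctcgattttcttc
RPLP0, RPLP1, RPLP2, RPS6 and RPS19 have a tract, and RPS26 has none at its annotated start. In RPLP1, RPLP2 and RPS19 the tract goes on past the last base shown.

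The same window was set side by side for 3 pairs of a parent gene and its L-named paralog. These were RPL10 (chrX:154398357-154398386, plus strand, 1 of its 3 listed starts) with RPL10L (chr14:46651772-46651801, minus strand), RPL36A (chrX:101390991-101391020, plus strand) with RPL36AL (chr14:49620617-49620646, minus strand), and RPS27 (chr1:153990742-153990771, plus strand) with RPS27L (chr15:63157468-63157497, minus strand).
RPL10: atgcgcaggcggaggagcgcCTCTTTCCCT
RPL10L: gcgcgcaggcgtagttaagagagcgcattt
RPL36A: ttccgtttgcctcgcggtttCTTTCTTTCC
RPL36AL: tccgcctgtttcttccctttCCTgttaggc
RPS27: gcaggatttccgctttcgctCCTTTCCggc
RPS27L: cccggaagttgatgccgagcgcagatcgct
The parents RPL10, RPL36A and RPS27 carry a tract at the start shown. Their paralogs RPL10L, RPL36AL and RPS27L carry none that reaches 5 bases counted from the start. In RPL36AL the pyrimidine run begins before the annotated start. The tract of RPL10 also goes on past the window.

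The promoter window of 300 bases (250 before and 50 after the start) was searched on both strands for other letters. The ETS core CCGGAA occurred in 38 of the 66 genes and in 5449 of the 27239 other symbols, GGGCGG in 60.6% and 48.3%, AAGATGG in 13.6% and 7.10%, and TATAAA in 9.09% and 14.0%. These are matches of letters and not bound sites. The 250 bases before the start of RPLP0 (chr12:120201112-120201361, minus strand, GRCh38.p14) are given below with TATAAA, whose first base lies at position -27 from the start, in capitals.
RPLP0 upstream: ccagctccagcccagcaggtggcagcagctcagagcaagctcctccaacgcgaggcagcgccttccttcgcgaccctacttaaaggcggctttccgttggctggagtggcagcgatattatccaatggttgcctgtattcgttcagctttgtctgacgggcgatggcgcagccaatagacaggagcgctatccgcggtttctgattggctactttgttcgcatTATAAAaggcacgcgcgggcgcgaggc

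Between 8847368 and 13740386 reads per library could be recovered from the deposited values. All 10 prostate markers examined, among them KLK3 and FOLH1, had reads in every library of both lines. Markers of other cell types were mixed. CD3E (T cells) and KRT5 (basal epithelium) were at 0 in all 12 libraries, while PTPRC (leukocytes) reached at most 1.07 normalized counts in C4-2B and 1.77 in 22RV1. CD68 (leukocytes) averaged 128 normalized counts in C4-2B and 16.7 in 22RV1, VWF (endothelium) 146 and 1.48, and COL1A1 (fibroblasts) 346 and 298. COL3A1 (fibroblasts) averaged 2.12 and 33.0, and PECAM1, DCN and KRT14 reached at most 10.7 in any library. The 56-mer 1 library of C4-2B stood apart from the other C4-2B libraries: its values against the control mean fell with transcript length across 10457 genes (Spearman rho -0.375, against -0.186 and -0.0835 in 56-mer 2 and 3), so fitted changes, counts and medians in C4-2B are also given without it for the genes and lists that the results turn on. The 56-mer 2 and 3 libraries of C4-2B followed GC content more than 56-mer 1 did (rho 0.306 and 0.328, against -0.0573). In 22RV1 the 56-mer 1 library had the strongest trend with GC content (rho -0.517 across 12276 genes). The 22RV1 56-mer 2 and 3 libraries were at 0.0663 and 0.238, and the controls at 0.0270, -0.244 and 0.232.

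The 83 genes took a larger share of the reads in C4-2B than in 22RV1. In C4-2B they held 9.52%, 8.54% and 8.27% of the recovered reads with the 56-mer (8.78% ± 0.660, SD, n = 3; 8.41% without 56-mer 1) and 8.43%, 8.05% and 8.07% in controls (8.18% ± 0.218, SD, n = 3). The highest share was that of 56-mer 1, and 56-mer 3 lay below control 1, so the groups overlapped. In 22RV1 the shares were 4.30%, 4.47% and 4.56% with the 56-mer (4.45% ± 0.131, SD, n = 3) and 4.41%, 4.61% and 4.67% in controls (4.56% ± 0.137, SD, n = 3), again with overlap. Large-subunit genes took 5.51% ± 0.396 and 5.14% ± 0.136 of the C4-2B reads with the 56-mer and in controls, and small-subunit genes 3.27% ± 0.264 and 3.04% ± 0.0818 (SD, n = 3 each). In bulk samples such as these, fewer cells of a kind and less RNA per cell cannot be told apart. The 1133 entries for ribosomal protein pseudogenes, which can share reads with their parent genes, added 0.0863% and 0.0832% in C4-2B with the 56-mer and in controls, and 0.0633% and 0.0623% in 22RV1.

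**Figure D1:**
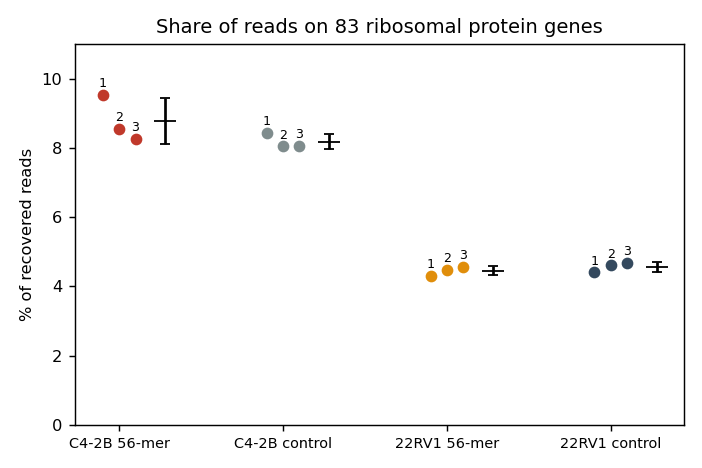
Share of the recovered reads (%) on the 83 ribosomal protein genes in each library, by line and group, with replicate numbers above the points and mean ± SD (n = 3) beside them. C4-2B libraries lie between 8.05% and 9.52% and 22RV1 libraries between 4.30% and 4.67%, and within each line the 56-mer and control groups overlap.

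Control levels were compared between genes per length, as reads-per-million (RPM) divided by the length of the transcript in kilobases. In C4-2B controls RPS15 of the small-subunit head was highest (3482 ± 117, SD, n = 3), followed by RPLP0 (3198 ± 119), the base of the ribosomal stalk, RPL7A (3134 ± 60.4), RPS18 (2970 ± 136) and RPS2 (2688 ± 97.7). The controls of RPS15 all lay above those of RPLP0, the ranges of RPLP0, RPL7A and RPS18 overlapped with their neighbours, and RPS2 lay below RPS18 without overlap. In 22RV1 controls RPLP0 was highest (1904 ± 26.2), followed by RPS2 (1788 ± 24.1), RPS18 (1666 ± 118), RPS19 (1456 ± 55.2) and RPS3A (1441 ± 91.3). Of these neighbours only RPS19 and RPS3A had ranges that overlapped. The median tested ribosomal protein gene had a level of 1137 in C4-2B and 643 in 22RV1. Across 80 genes tested in both lines the order of these levels was similar in both (Spearman rho 0.873, across genes that share a length in both lines). Per coding length instead of transcript length the order moved (rho 0.860 in C4-2B and 0.854 in 22RV1), so the places of single genes depend on the length used.

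The low end held 2 kinds of genes. Among the lowest tested levels were those of RPL3L (1.89 ± 0.279), RPL10L (2.31 ± 1.42), RPL17, RPS10 and RPL36A in C4-2B controls, and of RPL17, RPS10, RPL36A and RPL39L (12.1 ± 1.88) in 22RV1 controls. The first was a set of 7 genes whose transcript is overlapped, over at least 20% of its length, by exons of another GENCODE 29 gene, among them RPL17 (81.5%), RPS10 (77.0%), RPL26 (59.0%), RPL36A (48.2%), RPL22 (29.3%) and RPS15A (21.3%). Their levels were 4.05 to 54.1 in C4-2B controls and 2.79 to 72.6 in 22RV1 controls, against medians of 1238 and 689 over the genes below that overlap. The readthrough entries RPS10-NUDT3, RPL36A-HNRNPH2 and RPL17-C18orf32 were listed at 0 in all 12 libraries, and so were AC135178.2 and AC138811.2. The pseudogene RPS10P7 had 244 ± 81.3 and 283 ± 13.3 normalized counts in C4-2B with the 56-mer and in controls, and RPS10 itself had 41.2 ± 13.4 and 38.3 ± 5.46 (SD, n = 3 each; these counts are not scaled for length). How the authors counted reads that fall on 2 genes is not given in the sources used here, and whether the overlap sets these low levels was not tested. Values of these 7 genes are therefore uncertain.

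The second kind was the L-named paralogs, which are mostly known for narrow expression: RPL3L in heart and skeletal muscle, RPL10L and RPL39L in testis. RPL39L was at 0 in all 6 C4-2B libraries and had 137, 98.4 and 114 normalized counts in 22RV1 with the 56-mer and 96.0, 128 and 101 in 22RV1 controls. In controls it was at least 105-fold lower in C4-2B than in 22RV1, taking 3 reads over the C4-2B control group as the limit that a count of 0 allows. RPL10L showed the opposite pattern, with 158 reads over the 6 C4-2B libraries and 0 in the 6 libraries of 22RV1. It was at least 23.4-fold higher in C4-2B controls (1.88 ± 1.15 RPM, SD, n = 3), with the same limit of 3 reads over the group in 22RV1. Intervals and limits of this kind cover counting error only.

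RPL3L amounted to 0.106% ± 0.0313 and 0.143% ± 0.0175 of RPL3 in C4-2B with the 56-mer and in controls, and to 0.0220% ± 0.0240 and 0.0564% ± 0.0136 of RPL3 in 22RV1 with the 56-mer and in controls (SD, n = 3 each). Its log2 ratio to RPL3 was higher by 1.27 in C4-2B controls than in 22RV1 controls without overlap (exact permutation test, two-sided, p = 0.10, the smallest p that 3 against 3 allows; Benjamini-Hochberg p = 0.15 over 3 pairs). RPS27L, a target of p53 that is widely expressed, reached 15.6% ± 1.15 of RPS27 in C4-2B controls and 14.4% ± 2.30 in 22RV1 controls, a log2 difference of 0.13 (exact permutation p = 0.50, adjusted p = 0.50). The log2 ratio of RPL36AL to RPL36A was higher by 2.28 in C4-2B controls than in 22RV1 controls (exact permutation p = 0.10, adjusted p = 0.15); RPL36A is among the overlapped genes, which touches this ratio. These are ratios of normalized counts that are not scaled for length, so they compare libraries and not the levels of the 2 genes. With 3 libraries against 3, none of these ratios could reach a p below 0.10.

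**Figure D2:**
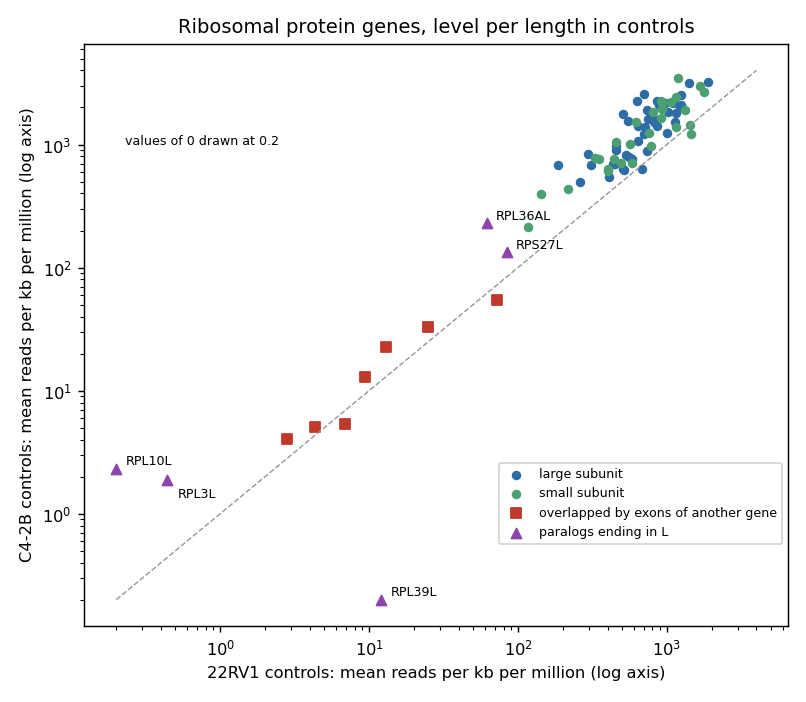
Mean level per transcript length in C4-2B controls against 22RV1 controls (RPM per kilobase of transcript, log axes, n = 3 libraries each), 1 point per ribosomal protein gene, with the line of equal levels dashed. Most genes lie above the line, the 7 genes overlapped by exons of another gene lie below 100 in both lines, and RPL39L and RPL10L are each at 0 in one line.

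**Figure D3:**
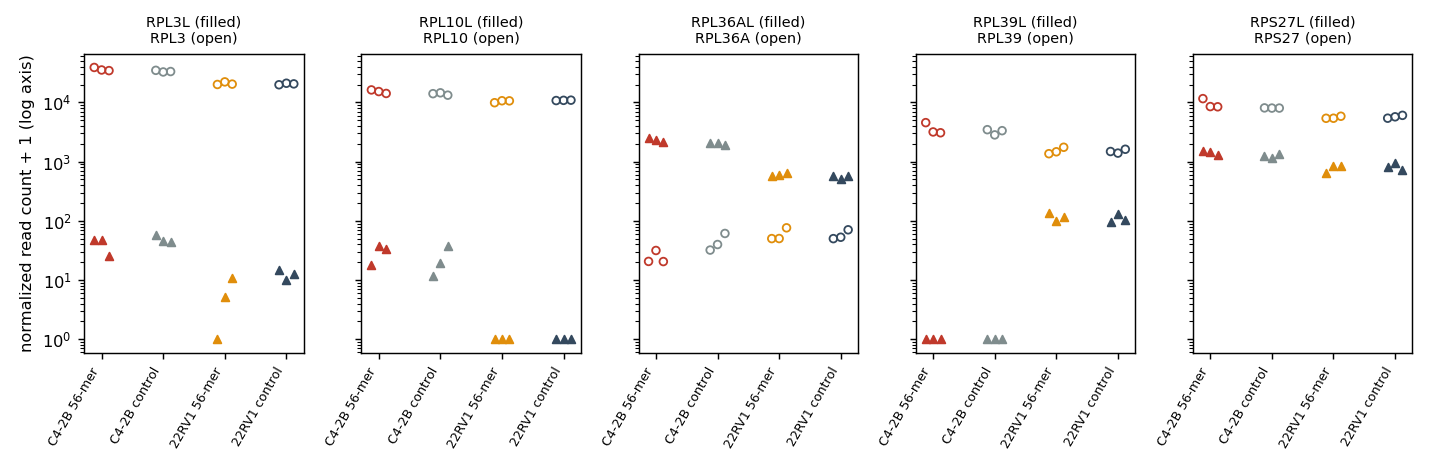
Normalized read count + 1 (log axis) of 5 L-named paralogs (filled triangles) and their parents (open circles) in each of the 12 libraries; the tables of the 2 lines were normalized separately. RPL39L is at 0 in all C4-2B libraries, RPL10L is at 0 in all 22RV1 libraries, and counts are not scaled for length.

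Between the lines, most ribosomal protein genes were higher in C4-2B controls. These levels are RPM of each library and were not tested, since the tables were made separately and each line is its own set of cells. In 72 of 80 genes all C4-2B controls lay above all 22RV1 controls, as did 30.1% of all 15527 genes, and in 3 genes (RPL5, RPL22 and RPS19) all lay below, as did 46.4% of all genes. The median log2 ratio of C4-2B to 22RV1 was 0.84 over the 80 genes and -0.29 over all genes. Among the 80 it was highest in RPL36AL (3.72-fold), RPL35A (3.66-fold), RPL35 (3.65-fold) and RPL21 (3.61-fold), all of the large subunit. RPL3L, which was too low for the test in 22RV1, stood at 4.29-fold. The small-subunit protein RPS15 was at 1936 ± 65.0 RPM in C4-2B controls and 663 ± 44.4 in 22RV1 controls (SD, n = 3 each). The lowest ratios belonged to RPL22 (0.745), RPL36A (0.786), RPS19 (0.830), RPL5 (0.931) and RPS3A (0.995). RPS19, a small-subunit protein mutated in Diamond-Blackfan anaemia, was at 722 ± 59.9 RPM in C4-2B controls and 869 ± 33.0 in 22RV1 controls (SD, n = 3 each), with no overlap. RPL5, which binds 5S ribosomal RNA with RPL11, was at 648 ± 23.9 and 696 ± 2.94, whereas RPL11 was at 560 ± 34.6 in C4-2B controls and 446 ± 14.7 in 22RV1 controls (SD, n = 3 each). The log2 ratio between lines ran from -0.42 to 1.90 among the 80 genes, and it had a Spearman rho of -0.323 with transcript length and 0.227 with GC content over these genes.

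The question put to C4-2B cells was which transcripts change with the 56-mer at 2 mM glutamine. Ribosomal protein genes were mostly a little higher with the 56-mer, and 1 of them, RPLP0, rose past the threshold. RPLP0 had 50317, 48257 and 47330 normalized counts with the 56-mer and 43229, 40972 and 39490 in controls. All 3 treated libraries lay above all controls, and the log2 change was 0.24 ± 0.047 (SE), a 1.18-fold rise (limma, adjusted p = 0.0446 over 16657 genes). That call was made for 11 genes in all, 0.066% of those tested, and for 1 of the 82 ribosomal protein genes tested. RPLP0 kept its direction in all 16 alternatives and lost the call in 12 of them, with adjusted p between 2.21e-06 and 0.776. Without 56-mer 1 the log2 change was 0.21 ± 0.034 with an adjusted p of 0.000243, and under quantile normalization it was 0.06 ± 0.039 with an adjusted p of 0.734.

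Of the 82 genes, 77 had a log2 change above 0 and 5 below, with a median of 0.15, against 48.3% above 0 and a median of -0.01 over all genes. An unadjusted p under 0.05 was reached by 38 of the 82 genes with a higher value and by 0 with a lower one; over all genes these shares were 4.89% and 4.03%. Of the other 81 genes, all missed the adjusted threshold by limma. All treated libraries lay above all controls in 29 genes and below them in 1 (RPL36A), against 7.59% and 7.08% of all genes. The medians of the large subunit (0.14, 49 genes) and of the small subunit (0.15, 33 genes) were close. Among 52 other nuclear genes at least as abundant as the median ribosomal protein gene, 38 were higher with the 56-mer and the median was 0.06.

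The size of this shift differed between the treated libraries. Against the control mean, the median log2 deviation of the 82 genes was 0.28 in 56-mer 1, 0.09 in 56-mer 2 and 0.04 in 56-mer 3, while the controls stood at 0.05, -0.02 and -0.03. Control 1 thus lay above 56-mer 3. Without 56-mer 1, 61 of 82 genes were higher, the median fell to 0.06 and 25 genes reached an unadjusted p under 0.05, all higher, against 6.19% of 16322 genes higher at that p. In that fit 4 ribosomal protein genes passed the adjusted threshold, against 0.496% of all genes. Among them were RPLP0, and RPS15 and RPL13 with log2 changes of 0.17 ± 0.038 and 0.16 ± 0.038. Under quantile normalization 62 of 82 genes were higher with a median of 0.05, and under a correction for GC content and length 75 were higher with a median of 0.09. The part of library composition in the shift was not tested further.

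**Figure D4:**
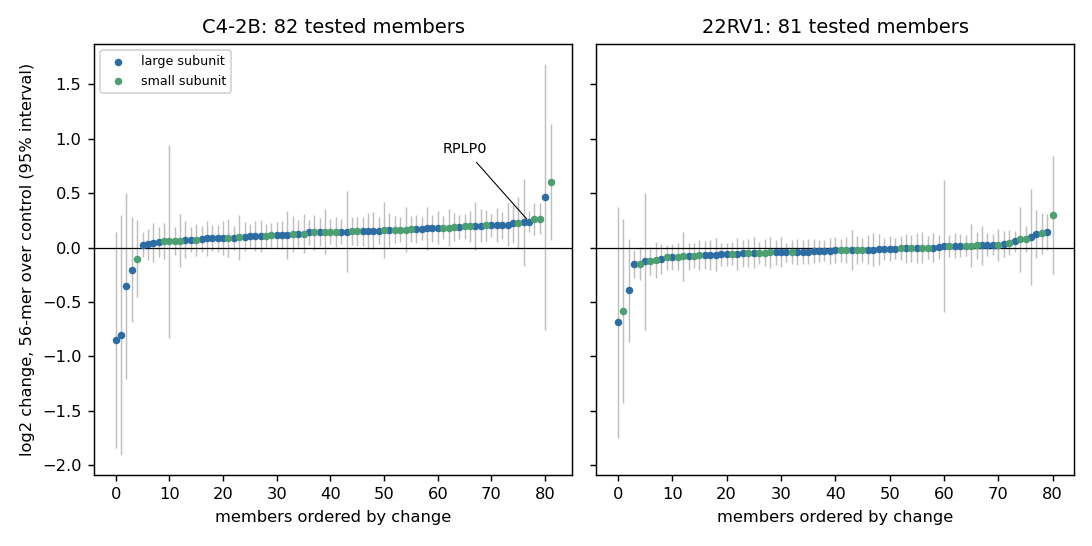
Fitted log2 change, 56-mer over control, with its 95% interval for each tested ribosomal protein gene, ordered by size within each line and coloured by subunit. In C4-2B 77 of 82 genes lie above 0 and RPLP0 alone passes the adjusted threshold; in 22RV1 23 of 81 lie above 0 and 0 pass.

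**Figure D5:**
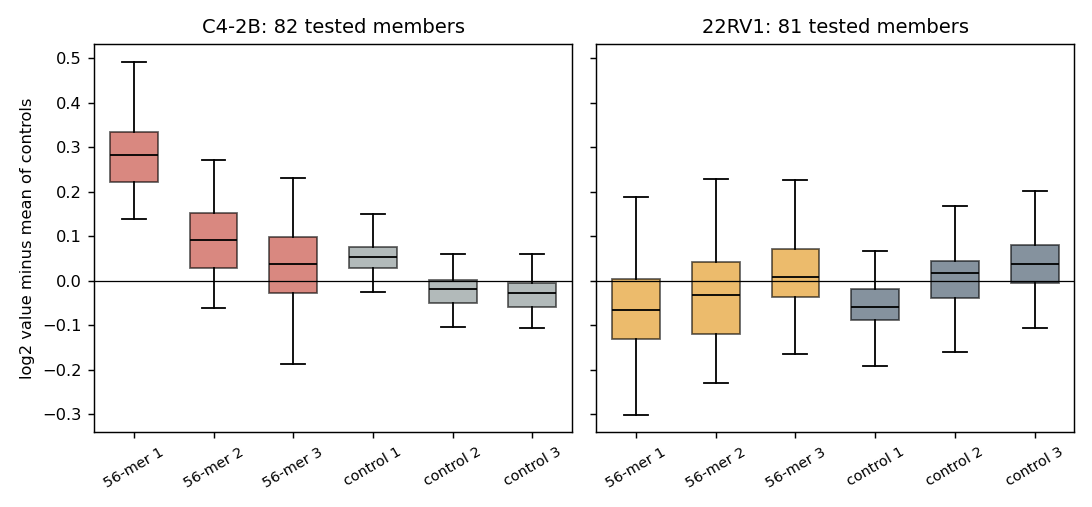
Log2 value minus the mean of the controls of the same line for the tested ribosomal protein genes in each library (box, quartiles and median; whiskers to 1.5 times the quartile range, points beyond not drawn). The C4-2B 56-mer 1 library has a median of 0.28, above the other C4-2B libraries (-0.03 to 0.09), and the 22RV1 libraries lie between -0.06 and 0.04.

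The stalk proteins RPLP0, RPLP1 and RPLP2 form the flexible arm that recruits elongation factors. RPLP2 had 14655, 13397 and 12824 normalized counts in C4-2B with the 56-mer and 12072, 11794 and 11480 in controls, with no overlap, and a log2 change of 0.21 ± 0.060 (limma adjusted p = 0.322). RPLP1 had 15395, 13323 and 13759 with the 56-mer and 13356, 13188 and 12591 in controls, and here 56-mer 2 lay below control 1 (0.12 ± 0.061, adjusted p = 0.592). Neither passed the threshold. Without 56-mer 1 the changes were 0.15 for RPLP2 and 0.05 for RPLP1 (limma adjusted p = 0.113 and 0.695).

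Among the small-subunit proteins RPS26 and RPS19 had some of the largest values in C4-2B. RPS26, which lies at the exit of the mRNA channel, had 7390, 6925 and 6420 normalized counts with the 56-mer and 5865, 5949 and 5409 in C4-2B controls, with no overlap (log2 change 0.27 ± 0.070, limma adjusted p = 0.264). RPS19 had 10935, 10030 and 9324 with the 56-mer and 9114, 7677 and 8453 in controls, with no overlap (0.26 ± 0.071, adjusted p = 0.291). Neither was called, and without 56-mer 1 their changes were 0.22 and 0.20 (limma adjusted p = 0.0744 and 0.081).

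RPSA, the laminin receptor precursor that sits on the small subunit, had 21264, 19476 and 20397 with the 56-mer and 18838, 17132 and 17474 in C4-2B controls (0.19 ± 0.056, limma adjusted p = 0.317). RPS6, the S6 kinase substrate, had 26210, 22978 and 22657 with the 56-mer and 21980, 21831 and 20964 in controls (0.15 ± 0.057, adjusted p = 0.461). In both genes all treated libraries were above all controls. RPS27A and FAU are made as fusions with ubiquitin or a ubiquitin-like protein that is cut off. RPS27A had 7732, 6921 and 6690 with the 56-mer and 6157, 6244 and 6083 in controls (0.20 ± 0.068, adjusted p = 0.399), and FAU had 3137, 2692 and 2663 against 2552, 2453 and 2450 (0.18 ± 0.083, adjusted p = 0.534). Each of these genes missed the adjusted threshold. Without 56-mer 1 the changes were 0.16 for RPSA, 0.08 for RPS6, 0.14 for RPS27A and 0.11 for FAU (limma adjusted p between 0.0629 and 0.614).

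Of the MDM2-binding pair, RPL11 had 8439, 7327 and 6897 normalized counts with the 56-mer and 6996, 6148 and 6457 in C4-2B controls (0.21 ± 0.075, limma adjusted p = 0.453). RPL5 had 8608, 8076 and 7627 with the 56-mer and 7932, 7359 and 7372 in controls (0.10 ± 0.066, adjusted p = 0.683). In both genes 56-mer 3 lay below control 1. RPL10, a late-joining large-subunit protein near the peptidyl transferase centre, had a log2 change of 0.13 ± 0.060 (adjusted p = 0.552) with overlap, and RPL4, which lines the exit tunnel, had one of 0.03 ± 0.055 (adjusted p = 0.931). Without 56-mer 1 the changes were 0.12 for RPL11, 0.06 for RPL5, 0.08 for RPL10 and -0.03 for RPL4 (limma adjusted p between 0.385 and 0.825). RPL10L and RPL37 were among the 6 largest values above 0 (0.47 ± 0.59 and 0.23 ± 0.16), each with overlap.

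The 5 genes below 0 in C4-2B were RPL36A (-0.85 ± 0.48), RPL17 (-0.81 ± 0.53), RPL3L (-0.35 ± 0.42), RPL26 (-0.20 ± 0.23) and RPS15A (-0.10 ± 0.17), and RPL4 had the smallest value above 0. None of them reached an unadjusted p under 0.05 in limma. RPL36A had 19.6, 30.5 and 19.5 normalized counts with the 56-mer and 31.0, 38.8 and 60.1 in C4-2B controls. RPL36A, RPL17, RPL26 and RPS15A are overlapped genes with low counts, and RPL3L is a low paralog.

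Genes with and without a TOP tract at an annotated start had close medians. The grouping depends on the annotated start base. RPL19 and RPL36AL, counted as without a tract, have a pyrimidine run that begins before an annotated start and crosses it. In C4-2B the median log2 change was 0.15 over the 47 genes with a tract and 0.17 over the 19 with a promoter entry and no tract; no test was run, as members are not replicates. Without 56-mer 1 these medians were 0.07 and 0.10. In 22RV1 the medians were -0.04 over 47 genes and -0.01 over 18.

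In 22RV1, the same question gave 0 ribosomal protein genes past the threshold, with 2 of 20517 genes called by limma in all (0.00975%). By edgeR and by DESeq2 on the recovered reads also 0 of the 81 tested were called. Values above 0 were seen in 23 genes and below 0 in 58, with a median of -0.03, against -0.003 over all genes. At an unadjusted p under 0.05 stood 1 gene with a lower value (RPLP1) and 0 with a higher one, against 2.15% and 1.76% of all genes. All treated libraries lay above all controls in 1 gene (RPL38) and below them in 6 (RPL10, RPL21, RPL26, RPLP0, RPS10 and RPS16), against 4.45% and 4.58% of all genes. The 1 of 81 lies below its background share and the 6 of 81 somewhat above theirs. The median depended on single libraries. Without 22RV1 56-mer 1 it was -0.003, with 36 genes above 0 and 45 below. Without 22RV1 control 3 it was -0.004 (35 above and 46 below), and without 22RV1 control 1 it was -0.061 (17 above and 64 below).

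RPLP1 had 5515, 5977 and 6483 normalized counts in 22RV1 with the 56-mer and 6303, 6534 and 7089 in 22RV1 controls, with overlap (log2 change -0.15 ± 0.062, limma unadjusted p = 0.0193, adjusted p = 0.9996). RPLP0 had 24530, 24722 and 24301 with the 56-mer and 24802, 25473 and 25378 in controls, with no overlap but a change of only -0.04 ± 0.043. RPL38, a small protein at the surface of the large subunit, had 1659, 1776 and 1613 with the 56-mer and 1551, 1566 and 1454 in controls (0.14 ± 0.081). Other values above 0 were those of FAU (0.13 ± 0.095), RPL36AL (0.12 ± 0.11), RPL39L (0.10 ± 0.22) and RPS4X (0.08 ± 0.058), the X-linked form of RPS4. The largest below 0 were RPL17 (-0.69 ± 0.53), RPS10 (-0.58 ± 0.42) and RPL26 (-0.39 ± 0.23), all overlapped genes, and then RPLP1, RPS21 (-0.15 ± 0.073) and RPL36 (-0.13 ± 0.24). RPL5, RPL11, RPS6 and RPSA lay at 0.02, 0.03, -0.05 and 0.02.

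Whether the change differs between lines was tested as the difference of the 2 log2 changes over 15527 genes. The change was greater in C4-2B than in 22RV1 in 75 of 80 genes, with a median difference of 0.17 against -0.01 over all genes. By limma 0 genes of any kind passed the adjusted threshold (0%), with 1227 at an unadjusted p under 0.05; edgeR called 1 gene and DESeq2 11, 0 of them ribosomal protein genes. At an unadjusted p under 0.05 stood 17 of the 80 genes with a greater change in C4-2B and 0 with a smaller one, against 3.75% and 4.15% of all genes. RPLP0 had the smallest p: its log2 change was greater in C4-2B by 0.28 ± 0.061 (limma adjusted p = 0.373), followed by RPS19 (0.32 ± 0.093, adjusted p = 0.534) and RPS27A (0.33 ± 0.098, adjusted p = 0.534). Without C4-2B 56-mer 1, 67 of 80 genes were greater in C4-2B and the median was 0.09, against 0.003 over all genes. There 11 of the 80 stood at an unadjusted p under 0.05 by limma, all greater in C4-2B. Of all 15322 genes 1616 stood at that p, 705 of them greater in C4-2B. A difference between the lines was thus not called for any ribosomal protein gene in this fit.

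The authors' deposited table, made from the same libraries, gave C4-2B values of the same direction. Of 82 ribosomal protein genes, 77 had a positive log2 fold change in the authors' deposited table, with a median of 0.15, and 36 had an unadjusted p under 0.05, all with higher values. The lowest adjusted p over all C4-2B genes in the authors' deposited table was 0.447. RPLP0, with a log2 fold change of 0.24 there, thus did not pass 0.05 in it. In the authors' deposited table for 22RV1, 22 of 82 had a positive log2 fold change and 1 an unadjusted p under 0.05. Shares over all genes of the deposited tables are not given here. In the limma fits of the same libraries, 48.3% of all C4-2B genes and 49.4% of all 22RV1 genes were above 0. At an unadjusted p under 0.05 in limma stood 4.89% higher and 4.03% lower in C4-2B, and 1.76% higher and 2.15% lower in 22RV1.

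Other genes known for TOP mRNAs were set beside these: elongation and initiation factors, and some with other roles, such as the filament protein VIM, the nucleolar NPM1 and the noncoding GAS5. Of 23 listed, 22 were tested and 0 passed the adjusted threshold by limma in either line. EEF1G was listed at 0 in all 12 libraries. In C4-2B 16 of the 22 were higher with a median log2 change of 0.05, and 4 stood at an unadjusted p under 0.05 with higher values and 1 with a lower one. Over all C4-2B genes 48.3% were higher, and 4.89% and 4.03% stood at that p with higher and lower values. RACK1, a scaffold on the small subunit, had a change of 0.17 ± 0.053 (limma adjusted p = 0.386), the elongation factor EEF1D 0.21 ± 0.067 (adjusted p = 0.392) and the initiation factor subunit EIF3K 0.20 ± 0.075 (adjusted p = 0.456). The abundant partners lay around or below 0: EEF1A1 at -0.003 ± 0.043, EEF2 at -0.16 ± 0.11 and PABPC1 at -0.13 ± 0.061. Without C4-2B 56-mer 1, EEF1D passed the threshold (limma adjusted p = 0.0184), as did 0.496% of all genes. In that fit 14 of the 22 were higher and the median was 0.02. EEF2 then stood at only -0.04 ± 0.028, EEF1A1 at -0.04 ± 0.028 and PABPC1 at -0.13 ± 0.050. In 22RV1 16 of the 22 were higher, against 49.4% of all genes, and the median was 0.02; VIM (0.16 ± 0.074), EIF4B (0.10 ± 0.050) and BTF3 (0.12 ± 0.072) had the smallest p.

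The regulators of TOP mRNAs, 15 genes including MTOR and LARP1, had 0 called in either line by limma, with 3 in C4-2B and 0 in 22RV1 at an unadjusted p under 0.05. The 3 were RPS6KB2 (0.26 ± 0.0997), EIF4EBP1 (0.21 ± 0.089) and TIAL1 (0.21 ± 0.10), all higher, where the share over all C4-2B genes was 4.89%. The medians over the list were 0.02 in C4-2B (0.04 without 56-mer 1) and -0.006 in 22RV1. Without C4-2B 56-mer 1, 2 of the 15 stood at an unadjusted p under 0.05 by limma, both higher, against 6.19% of all genes higher. EIF4EBP1 was then at 0.11 ± 0.077. TIA1, TSC1 and TSC2 had the smallest p in 22RV1 (-0.15 ± 0.082, -0.08 ± 0.11 and -0.06 ± 0.089). Of 12 chaperones and importins of ribosomal proteins, 0 were called by limma in either line, with 2 at an unadjusted p under 0.05 in C4-2B, both higher, and 0 in 22RV1. The median in C4-2B was 0.06, and 0.04 without 56-mer 1. Without that library 6 of the 12 were higher. At an unadjusted p under 0.05 by limma then stood 1 higher and 1 lower, the lower being IPO7 (-0.22 ± 0.10). GRWD1, which escorts RPL3, had a change of 0.40 ± 0.15 in C4-2B, TSR2, which escorts RPS26, 0.27 ± 0.13, and BCCIP, which escorts RPL23, 0.17 ± 0.11. In 22RV1 the smallest p belonged to PDCD2L (0.64 ± 0.33), LTV1 (-0.35 ± 0.20) and IPO7 (0.11 ± 0.064).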

How the data were processed

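Total RNA of 12 libraries was sequenced. The authors deposited, per line, a table of normalized signal (counts over 1 size factor per library, judging by the values) and a comparison table that, per the file headers, holds log2 fold changes, a Wald score and p-values. The submitters' processing notes name DESeq without a version; how reads were aligned and counted, and on which build, is not given in the sources used here. In the deposited signal 100% of nonzero values were whole multiples of 1 step per library (tolerance 0.01), which gave back the reads: 8847368 to 13740386 per library. On these, edgeR 4.0.16 called 0 genes in C4-2B and 2 in 22RV1.

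The test within a line took genes that reached 10 normalized counts in 3 or more of its 6 libraries. It was limma (3.58.1, under R 4.3.3, with trend and robust variance) on log2(value + 1), two-sided, with Benjamini-Hochberg adjustment over all genes and a threshold of 0.05. Fold changes are on that scale, which understates changes of low genes. Intervals are 95%. The scripts were tested on simulated data. Lengths are medians of protein-coding transcripts in GENCODE 29; coordinates belong to the RefSeq table. The exact permutation test used SciPy 1.17.1.

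The genes, lists and tests were chosen with earlier results of these data known. Named were members past the threshold, the 6 largest changes each way per line, RPLP0, RPLP1, RPLP2, RPSA, FAU, RPS6, RPL5, RPL11, RPL10, the L-named paralogs with parents, the 5 highest and lowest levels, the 3 strongest differences between lines, and 3 genes per list. EEF1G, EEF1A1, EEF2, PABPC1, RPS15 and RPL13 were added after their values were seen. Some genes that these rules name are not reported here.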

Additional observations from a re-analysis of the deposited data

How the results depend on the processing

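No paired analysis was possible because no number, culture day or batch in the labels links libraries across groups. In C4-2B, 11 genes (8 higher, 3 lower) and 1 ribosomal protein gene were called. The number of genes was 42 with DESeq2 1.42.0, 0 with edgeR (1399 at an unadjusted p under 0.05), 34 without the filter and 1 without trend and robust variance; scaled to equal totals it was 4 higher and 7 lower, and after quantile normalization 2 higher and 8 lower. The number of ribosomal protein genes was 0 with equal totals, edgeR, the GC and length correction, a mean of at least 50, plain variance, a pseudocount of 0.1 and quantile normalization, and 5 without the filter. Their median change was 0.094 with the GC and length correction and 0.053 with quantile normalization. In 22RV1, 8 genes were called with the GC and length correction, 11 without the filter and 0 with plain variance, against 2. For the difference between lines, DESeq2 called 11, edgeR 1, the GC and length correction 4, no filter 5, plain variance 1 and quantile normalization 1, against 0. Without mitochondrially encoded genes in the total, the read shares were 9.55% (C4-2B with the 56-mer), 8.86% (C4-2B controls), 4.73% (22RV1 with the 56-mer) and 4.83% (22RV1 controls). Leaving out 1 library at a time, the calls ranged from 0 to 81 in C4-2B (0 to 4 ribosomal protein genes, 4 without 56-mer 1), from 0 to 11 in 22RV1 (0 ribosomal protein genes throughout) and from 0 to 13 for the difference, and the C4-2B median from 0.062 (without 56-mer 1) to 0.19 (without 56-mer 3). The C4-2B minus 22RV1 log2 ratio of RPS27L to RPS27 ranged from -0.0019 (without 22RV1 control 3, a reversed sign) to 0.23. The cause of these shifts was not tested. Of 1392 pairs of a named value and an alternative, 38 changed sign, all uncalled (15 in C4-2B, 23 in 22RV1); the call of RPLP0 was lost in 12, and EEF1D, RPS15, RPS19 and RPSA gained a call in 5. Depth limits the genes with under 100 normalized counts, such as RPL17, RPS10, RPL36A, RPL3L and RPL10L.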

Other observations

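Related genes outside the symbol rule were counted too. RPL22L1, a paralog of RPL22 that is known to be made where RPL22 is low, had 4924 ± 566 and 4360 ± 171 normalized counts in C4-2B with the 56-mer and in C4-2B controls, and 905 ± 50.4 and 955 ± 46.4 in 22RV1 with the 56-mer and in 22RV1 controls (SD, n = 3 each). RPL22 averaged 1038 ± 83.6 with the 56-mer and 903 ± 14.6 in controls in C4-2B, and 1225 ± 103 with the 56-mer and 1245 ± 123 in controls in 22RV1; these are counts that are not scaled for length, and RPL22 is among the overlapped genes. RPL26L1 had 553 ± 9.76 and 552 ± 43.7 in C4-2B with the 56-mer and in controls, and its overlapped parent RPL26 had 150 ± 17.8 and 176 ± 45.9. In 22RV1 RPL26L1 had 172 ± 9.74 and 178 ± 14.9 with the 56-mer and in controls, and RPL26 80.2 ± 8.14 and 105 ± 10.03. Over the 5 related genes the log2 changes had medians of 0.05 (C4-2B) and -0.04 (22RV1), and 0 of them were called by limma in either line, with 2 in C4-2B and 0 in 22RV1 at an unadjusted p under 0.05. Over all C4-2B genes 4.89% and 4.03% stood at that p with higher and lower values, and without C4-2B 56-mer 1 the median of the related genes was 0.07. In that fit 1 of the 5 related genes stood at that p, with a higher value.

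Among pseudogene entries, RPS2P5 had 2744 ± 271 and 2479 ± 373 normalized counts in C4-2B with the 56-mer and in controls and 1100 ± 128 and 1094 ± 50.1 in 22RV1, and RPL41P1 1763 ± 446 and 1483 ± 45.97 in C4-2B and 890 ± 155 and 956 ± 73.5 in 22RV1 (SD, n = 3 each). How reads were divided between such copies and their parents was not tested.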
